A study of Mus musculus with 8 samples.

Results

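The renin-angiotensin genes examined here were the 7 genes Agt, Ace, Ren1, Agtr1a, Agtr1b, Agtr2 and Enpep, and every probe set that the array annotation gives to one of them was taken. Each probe set pools the signal of several short probes to the same transcript. Of 12422 probe sets, 8 belonged to 4 of these genes: 1 to Agt, 3 to Ace, 2 to Agtr2 and 2 to Enpep. Ren1, Agtr1a and Agtr1b had no probe set under their own symbol in the annotation used, and were not analysed here. The set was drawn up with Agt already known to have among the widest ranges on these arrays, so the levels of Agt are given as a description without a test.

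Total RNA from testis was hybridised to Affymetrix arrays in 4 groups of 2, named in the labels as Mus musculus domesticus, castaneus, musculus and ssp. Arrays of a group are technical replicates in the labels, which give no strain, age, treatment or number of animals, and they do not say what ssp stands for. Every p-value below therefore measures the spread between arrays and not between animals. As the RNA came from whole tissue, fewer cells of a type and less RNA per cell cannot be told apart. Whether the probes match the transcripts of all 4 groups equally well was not tested, so a group difference is one of signal.

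Renin cleaves angiotensinogen, the product of Agt, to angiotensin I, and the angiotensin-converting enzyme Ace trims that peptide to angiotensin II. The aminopeptidase Enpep shortens angiotensin II further, and the receptors Agtr1a, Agtr1b and Agtr2 carry its signal into cells. Angiotensinogen comes mainly from the liver. In the testis, developing sperm cells use a promoter inside the Ace gene to make a shorter enzyme that is known to be needed for male fertility in mice.

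The promoters of Agt and of both Ace start sites are shown because Agt carried the widest difference of the set and because Ace is transcribed in testis from a start of its own. Each window runs from 250 bases before to 50 bases after the start in RefSeq's table for GRCm38.p6, 5′ to 3′ along the gene. Capitals mark matches, on either strand, to the TATA box (TATAAA), to the CCAAT box, to the cyclic AMP response element (TGACGTCA) and to a related element (TGAGGTCA). The Agt window lies at chr8:124569657-124569956 on the minus strand, the upstream Ace window at chr11:105967698-105967997 and the downstream Ace window at chr11:105974939-105975238, both on the plus strand.
Agt: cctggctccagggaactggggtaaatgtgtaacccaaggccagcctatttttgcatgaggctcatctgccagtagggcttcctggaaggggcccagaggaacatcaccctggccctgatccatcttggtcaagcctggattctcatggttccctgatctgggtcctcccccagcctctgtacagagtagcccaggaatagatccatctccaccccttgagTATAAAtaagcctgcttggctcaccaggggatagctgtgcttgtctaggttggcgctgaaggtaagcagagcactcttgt
Ace upstream start: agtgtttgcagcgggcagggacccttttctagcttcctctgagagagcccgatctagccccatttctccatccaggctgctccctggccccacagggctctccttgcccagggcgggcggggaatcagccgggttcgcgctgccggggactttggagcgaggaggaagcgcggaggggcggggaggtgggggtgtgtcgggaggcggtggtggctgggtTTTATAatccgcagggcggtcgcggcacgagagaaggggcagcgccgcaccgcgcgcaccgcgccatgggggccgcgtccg
Ace downstream start: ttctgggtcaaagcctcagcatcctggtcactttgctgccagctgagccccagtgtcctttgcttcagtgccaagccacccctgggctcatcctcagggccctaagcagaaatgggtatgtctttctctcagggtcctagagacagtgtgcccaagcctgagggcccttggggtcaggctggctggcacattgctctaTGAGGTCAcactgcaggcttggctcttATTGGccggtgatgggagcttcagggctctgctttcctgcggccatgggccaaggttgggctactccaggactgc
The downstream Ace start lies 7241 bases into the gene from the upstream one. Its window held TGAGGTCA, the element related to that of cyclic AMP, with its first base at position -52 from the start. CCAAT was present there on the opposite strand at position -25. The Agt window held TATAAA at position -30, and the upstream Ace window held it on the opposite strand at position -31. Of 32851 promoter windows of this length, the TATA box was held by 13.6%, the CCAAT box by 37.4%, the cyclic AMP response element by 1.79% and the related element by 2.17%. The motifs were chosen with these sequences in view, none overlapped another, and a match describes letters only. The arrays do not tell the transcripts of the Ace starts apart here, since the annotation does not say which transcript each Ace probe set reports.

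Values are linear intensities as deposited, and a group value is the geometric mean of its 2 arrays after values under a floor of 18.7 were raised to it. SDs were taken over the log2 values of those 2 arrays. To be tested, a probe set had to reach the 40th percentile of its array, which lay between 94.7 and 118.9, on at least 2 of the 8 arrays. Of the 8 renin-angiotensin probe sets 4 passed, 1 of Agt, 2 of Ace and 1 of Enpep. The 4 others, 1 of Ace, both of Agtr2 and 1 of Enpep, did not.

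The Agt signal was high in the domesticus testis sample and low in the other 3, where it stayed under the filter on all 6 arrays. Agt was read by 1 probe set, 101887_at, so no second probe set could check that its signal follows the amount of RNA. Its intensity was 2556 and 2064 on the domesticus arrays, 89.7 and 61.5 on the castaneus arrays, 64.0 and 69.6 on the musculus arrays, and 30.0 and 83.8 on the ssp arrays. Both domesticus arrays lay far above the 6 others, and the arrays of castaneus, musculus and ssp overlapped one another. None of the 8 values was under the floor.

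The geometric mean of Agt was 2297 in domesticus (SD 0.22), 74.3 in castaneus (SD 0.39), 66.7 in musculus (SD 0.09) and 50.1 in ssp (SD 1.05). Domesticus was 30.9-fold above castaneus, 34.4-fold above musculus and 45.8-fold above ssp. The wide SD in ssp came from a replicate difference of 1.48 on the log2 scale, against 0.31 or less in size in domesticus and musculus. The order of the lower 3 groups is not resolved, as castaneus exceeded musculus by 0.15 and ssp by 0.57 on the log2 scale, beside a pooled replicate SD of 0.57 for this probe set.

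The 2 domesticus arrays were the only ones on which Agt reached the filter, so a probe set that passed this way had to differ between groups. When 1 array at a time was left out, domesticus stayed 4.68 to 5.11 above the next highest group on the log2 scale. With replicate 1 arrays alone the groups spanned 6.41 on that scale, and with replicate 2 arrays alone 5.07, with domesticus highest both times. These values come from the same arrays on which the range of Agt was known beforehand, so they describe the gap and do not test it.

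**Figure D1:**
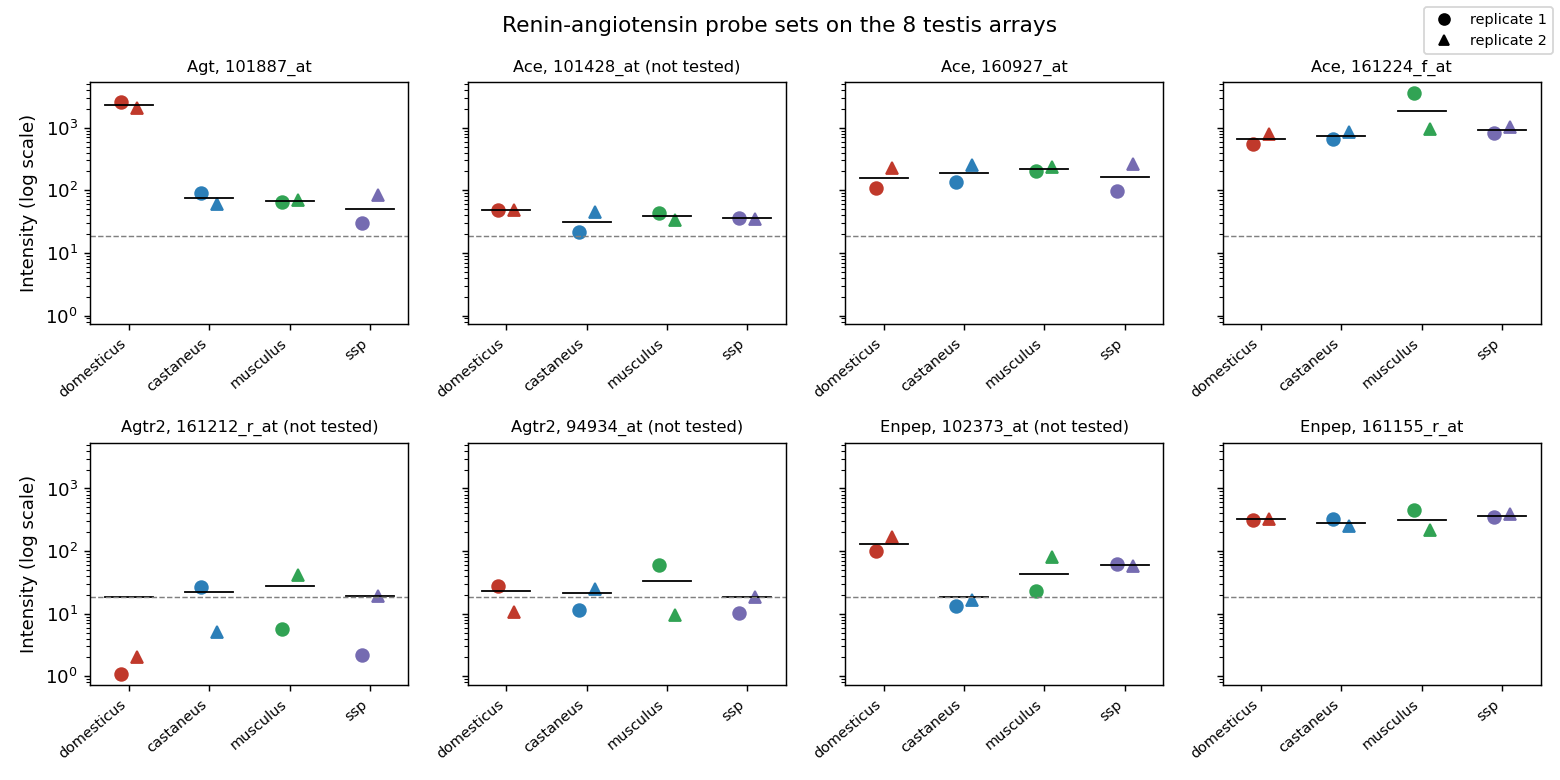
Intensity of the 8 renin-angiotensin probe sets on each array, on a log scale, by group. Circles and triangles are replicates 1 and 2, black bars geometric means with low values raised to the floor, and the dashed line is the floor of 18.7. Agt stands at 2556 and 2064 in domesticus and at 89.7 or less elsewhere, while the Ace and Agtr2 panels show no such gap.

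Ace was measured by 3 probe sets, and the tested ones did not differ among the groups beyond the spread between arrays. The brightest, 161224_f_at, read 547.7 and 781.6 in domesticus, 655.6 and 850.4 in castaneus, 3540 and 941.9 in musculus, and 835.6 and 1030 in ssp. A single array, musculus replicate 1, stood above all the others, and the arrays of every group overlapped those of the rest. Its suffix _f is the manufacturer's mark for probes shared by related transcripts.

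Over this probe set the group means spanned 2.79-fold, with domesticus lowest at 654.3 (SD 0.36) and musculus highest at 1826 (SD 1.35), and it did not pass limma's moderated F test (adjusted p = 0.508). The span was 1.48 on the log2 scale with all arrays and 0.53 without musculus replicate 1, and 2.44 without musculus replicate 2. Among replicate 1 arrays alone the groups spanned 2.69, and among replicate 2 arrays alone 0.40, on the same scale.

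The Ace probe set 160927_at read 109.9 and 228.8 in domesticus, 136.0 and 253.7 in castaneus, 202.2 and 233.5 in musculus, and 97.5 and 265.8 in ssp. Replicate 2 was the brighter array in all 4 groups, by 0.21 to 1.45 on the log2 scale, and the groups overlapped. The group means, 158.6 in domesticus, 185.8 in castaneus, 217.3 in musculus and 161.0 in ssp, spanned 0.45 on the log2 scale (limma, adjusted p = 0.942). The group with the highest mean changed in 3 of the 14 alternative settings in which the probe set was tested.

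The third Ace probe set, 101428_at, did not reach the filter on any array. Its 8 intensities lay between 21.9 and 49.0, and the domesticus values of 47.8 and 49.0 were the highest 2 by a small margin. Its group means spanned 1.55-fold, from 48.4 in domesticus to 31.2 in castaneus. In its dim range it gave no order of groups like that of either brighter Ace probe set, in which domesticus was lowest.

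Enpep, the aminopeptidase that removes the first residue of angiotensin II, was read by 2 probe sets that disagreed. The tested probe set, 161155_r_at, read 311.1 and 330.5 in domesticus, 321.9 and 249.9 in castaneus, 448.8 and 216.0 in musculus, and 346.2 and 388.0 in ssp. All groups overlapped on it, the span was 1.29-fold, and it did not pass (limma, adjusted p = 0.919). Its suffix _r marks probes that met fewer of the manufacturer's design rules.

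The other Enpep probe set, 102373_at, read 99.6 and 168.5 in domesticus, 13.5 and 16.7 in castaneus, 23.3 and 79.6 in musculus, and 62.1 and 58.0 in ssp. Both domesticus arrays were above the 6 others, and both castaneus arrays were below the rest and under the floor. The domesticus mean of 129.5 (SD 0.54) was at least 6.93-fold above castaneus, 3.01-fold above musculus and 2.16-fold above ssp. Only 1 array reached the filter, so this probe set was not tested, and in a fit without any filter it did not pass (limma, adjusted p = 0.276, with an unadjusted p of 0.0223). Of all 12422 probe sets, 4.98% had both domesticus arrays above the other 6, as did this one, 101428_at of Ace and Agt.

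Agtr2, the type 2 angiotensin receptor encoded on the X chromosome, gave no signal that reached the filter on any array. On probe set 94934_at the intensities were 28.0 and 10.5 in domesticus, 11.5 and 24.8 in castaneus, 59.5 and 9.4 in musculus, and 10.4 and 18.5 in ssp. On 161212_r_at they were 1.1 and 2.0 in domesticus, 26.5 and 5.2 in castaneus, 5.6 and 41.5 in musculus, and 2.2 and 19.0 in ssp. Each probe set was under the floor on 5 of 8 arrays, with no agreement between replicates in musculus, so no fold is given.

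Counted with the fit over all probe sets, 0 of the 3 tested Ace and Enpep probe sets differed among the groups by limma, and 0 had an unadjusted p under 0.05. Over all 8874 tested probe sets, 1.76% were called and 15.9% had an unadjusted p under 0.05. The median span of these 3 was 0.45 on the log2 scale, against 0.81 over all tested probe sets. Of their 18 contrasts between pairs of groups limma called 0, with 1 at an unadjusted p under 0.05, against 12.2% of the contrasts of all tested probe sets. The lowest adjusted p was 0.409, for domesticus against musculus on 161224_f_at (log2 difference -1.48, SE 0.61). Of all tested probe sets, 0.676% were called for domesticus against castaneus, 0.744% for domesticus against musculus, 0.687% for domesticus against ssp, 0.947% for castaneus against musculus, 0.349% for castaneus against ssp and 0.98% for musculus against ssp. For 160927_at the SE of each pair difference was 0.61 and for 161155_r_at 0.39 on the log2 scale. As the difference on 161224_f_at was well above its SE and not called, differences well above these errors could also go uncalled.

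**Figure D2:**
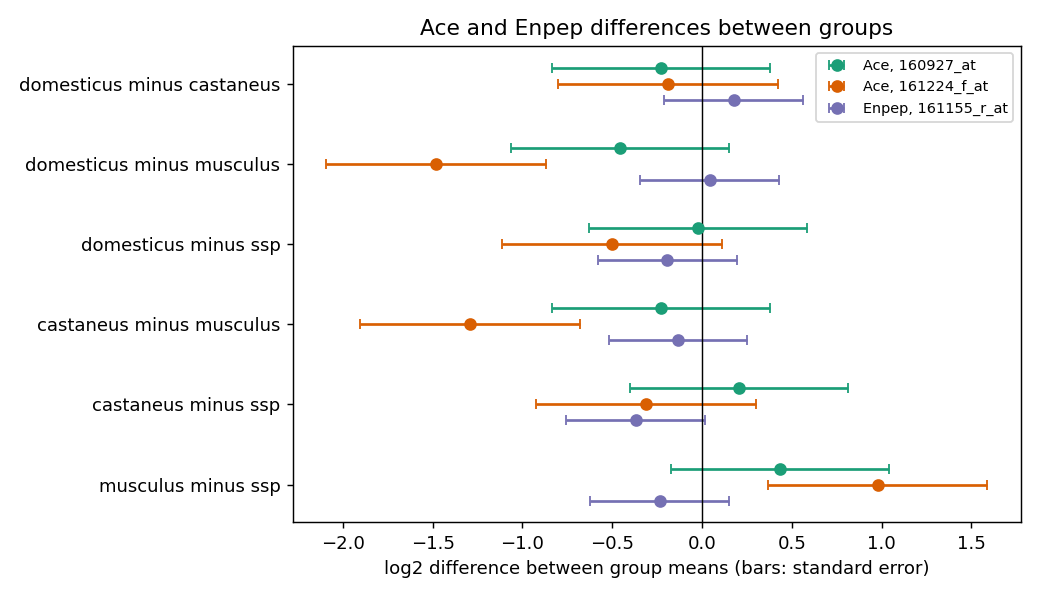
Log2 difference between group means for the 3 tested Ace and Enpep probe sets in each of the 6 pairs of groups. Points are differences, the group named first minus the other, and bars are standard errors from limma's fit. The points farthest from 0 are those of 161224_f_at that involve musculus, at -1.48 and -1.29, and none was called.

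Beyond these genes, 30 others of angiotensin and kinin handling were listed, of which 21 were on the array and 14 were bright enough to be tested. One of the 14, Prep, reached the filter on the domesticus arrays alone, so like Agt it had to differ between groups. Its pass of limma's test is therefore not counted as a result. By limma, 0 of the 13 others differed among the groups (adjusted p from 0.213 to 0.991), against 1.76% of all tested probe sets. At an unadjusted p under 0.05 there were 3, against 15.9% of all tested probe sets. Their median span, taken on each gene's brightest tested probe set, was 1.14 on the log2 scale, against 0.81 over all tested probe sets.

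Prep is prolyl endopeptidase, which can cut angiotensin I to the shorter angiotensin peptide that acts on the receptor Mas1. Its intensity was 175.7 and 153.4 in domesticus, 32.8 and 20.7 in castaneus, 19.6 and 22.3 in musculus, and 83.4 and 48.7 in ssp. Both domesticus arrays were highest, ssp lay between, and the castaneus and musculus arrays overlapped close to the floor of 18.7.

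The span of the Prep means, domesticus over musculus, was 2.97 on the log2 scale and depended on that floor, as it was 2.12 with the floor at the 20th percentile. In a fit without any filter Prep did not pass (limma, adjusted p = 0.0828). A dimmer Prep probe set, 161459_f_at, read 7.3 and 10.2 in domesticus and 2.1 to 55.9 elsewhere and was not tested.

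The following genes were picked after their values were seen. Thop1, thimet oligopeptidase, which also acts on angiotensin I, was the steadiest of the 14, at 3578 and 3299 in domesticus and 3190 to 3411 on the other 6 arrays. Its span was 0.07 on the log2 scale. Mas1, the receptor for the shorter angiotensin peptide, read 1084 and 1261 in domesticus, 1010 and 754.2 in castaneus, 646.0 and 529.4 in musculus, and 1069 and 1545 in ssp, and did not pass (limma, adjusted p = 0.266). Its musculus arrays were the lowest pair.

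Agtrap, a protein that binds the type 1 angiotensin receptor, read 134.9 and 168.6 in domesticus and 247.3 to 533.2 on the other 6 arrays (limma, adjusted p = 0.224). Kng1, kininogen, the precursor of the bradykinin that Ace breaks down, read 114.5 and 38.9 in domesticus, 321.8 and 851.2 in castaneus, 116.1 and 263.2 in musculus, and 352.5 and 640.5 in ssp (adjusted p = 0.213). Ctsd, the lysosomal protease cathepsin D, read 803.8 and 793.4 in domesticus and 999.5 to 1484 on the other 6 arrays (adjusted p = 0.329). Domesticus was lowest on both arrays for these 3 genes, as for 5.47% of tested probe sets, and none of them passed.

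**Figure D3:**
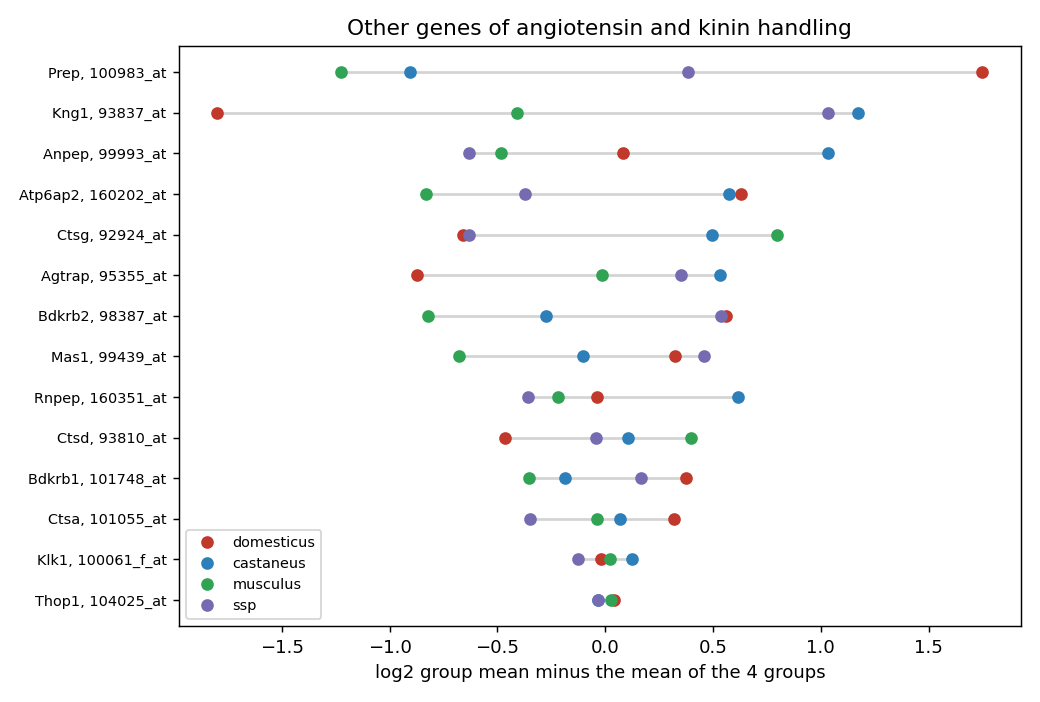
Group means of the 14 other tested genes of angiotensin and kinin handling, as log2 differences from the mean of the 4 groups, ordered by span. Each point is a group of 2 arrays. Prep has the widest span, with domesticus highest, followed by Kng1 with domesticus lowest, and Thop1 spans 0.07.

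The 10 spermatid markers were all on the array and tested, and their summed intensity on each gene's brightest probe set was 236956 to 250118 in domesticus, 269969 to 323770 in castaneus, 214822 to 271070 in musculus and 297601 to 346709 in ssp. By limma 0 of the 10 differed and 0 were at an unadjusted p under 0.05, against 1.76% and 15.9% of all tested probe sets. Not every testis marker was bright, since Sycp3 of the spermatocyte list was under the floor on 7 of 8 arrays. The sum of the 6 spermatocyte markers was 43860.5 and 44795.5 on the domesticus arrays and 46517.9 to 62477.6 elsewhere, so domesticus was lowest. Of the 5 tested, limma called 0, with 1, Hspa2, at an unadjusted p under 0.05. Only Hspa2 among these 5 had its lowest mean in domesticus, at 4543.1 and 4304.6 there and 7772.4 to 9686.9 elsewhere. Most of each sum came from Ldhc, which had its lowest mean in musculus, so the low domesticus sum does not describe the list as a whole. Ace 161224_f_at had its highest mean in musculus through a single array, and did not pass. The part of spermatids in the Ace values was not tested.

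Agt is made mainly in liver, so hepatocyte markers were read beside it. Of 18 listed, 15 were on the array and 7 were tested. By limma 0 of the 7 differed and 1 was at an unadjusted p under 0.05, against 1.76% and 15.9% of all tested probe sets. The summed intensity of the markers was 917.1 to 1244 in domesticus, 1015 to 1105 in castaneus, 771.1 to 1021 in musculus and 1385 to 1629 in ssp. Albumin (Alb) read 100.8 and 77.8 in domesticus and 22.7 to 121.4 elsewhere, and Fgb was under the floor on all 8 arrays. No intensity of the list was 0, but values under the floor, like those of Fgb, do not show that a transcript was present.

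Adipocytes also make angiotensinogen. Of 9 adipocyte markers, 7 were on the array and 4 were tested, with sums of 1184 to 1215 in domesticus, 729 to 776.3 in castaneus, 913.6 to 1209 in musculus and 1513 to 1885 in ssp. Of the 4 tested, limma called 1, against 1.76% of all tested probe sets. Adipoq, adiponectin, differed among the groups with ssp highest (limma, adjusted p = 0.0468), at 536.9 and 720.5 in domesticus, 191.7 and 123.7 in castaneus, 399 and 519.6 in musculus, and 941 and 914.4 in ssp. The call was lost whenever 1 array was left out, with spans of 2.27 to 2.91 on the log2 scale. Leaving out an array also lowered the count of calls over all probe sets. The Adipoq call was also lost with median centring (0.0808), quantile normalization (0.0558), no filter (0.087) and the replicate number as a block (0.0924). It held with the floor at the 20th percentile (0.0374), the filter at the 60th percentile (0.0140) and a trended and robust variance (0.00431). The other tested adipocyte markers were not called, and their order of groups differed. Fabp4 and Lpl also had their highest mean in ssp but their lowest in domesticus. Lep, on its brighter probe set, had its highest mean in domesticus and its lowest in ssp. The sum of kidney markers was 380.1 to 603.8 in domesticus and 526.2 to 614.3 elsewhere, and that of epididymis markers 251.8 to 268.1 in domesticus and 91.1 to 396.2 elsewhere. The part of any of these cell types in the Agt values was not tested.

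The sum of the Leydig markers was 4714 to 4811 in domesticus and was highest in musculus, at 13684 to 14464. Most of the musculus sums came from Cyp17a1, at 8656 and 9709. Hsd3b6 read 339.5 and 303.7 in domesticus and 35.5 to 237.7 elsewhere, and Insl3 had its highest mean in ssp. The other Leydig genes on the array had their highest mean in musculus on their brightest probe set. Of the 7 tested Leydig markers limma called 2, against 1.76% of all tested probe sets. At an unadjusted p under 0.05 there were 6, against 15.9% of all tested probe sets. The 2 called were Cyp17a1 (adjusted p = 0.0339) and Star (adjusted p = 0.0321), both of steroid synthesis and highest in musculus on these probe sets. The other probe set of each gene was also tested and did not pass. For Cyp17a1 its mean was lowest in musculus, at 102.2, and highest in domesticus, at 172.0 (limma, adjusted p = 0.922). For Star its means lay between 139.5 in castaneus and 152.8 in musculus (limma, adjusted p = 0.993). Both calls were lost whenever 1 array was left out. They were also lost without a filter (0.0572 for each) and with the replicate number as a block (0.0659 for Cyp17a1 and 0.0551 for Star). Each call held in 5 of the 7 alternatives that kept all arrays.

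**Figure D4:**
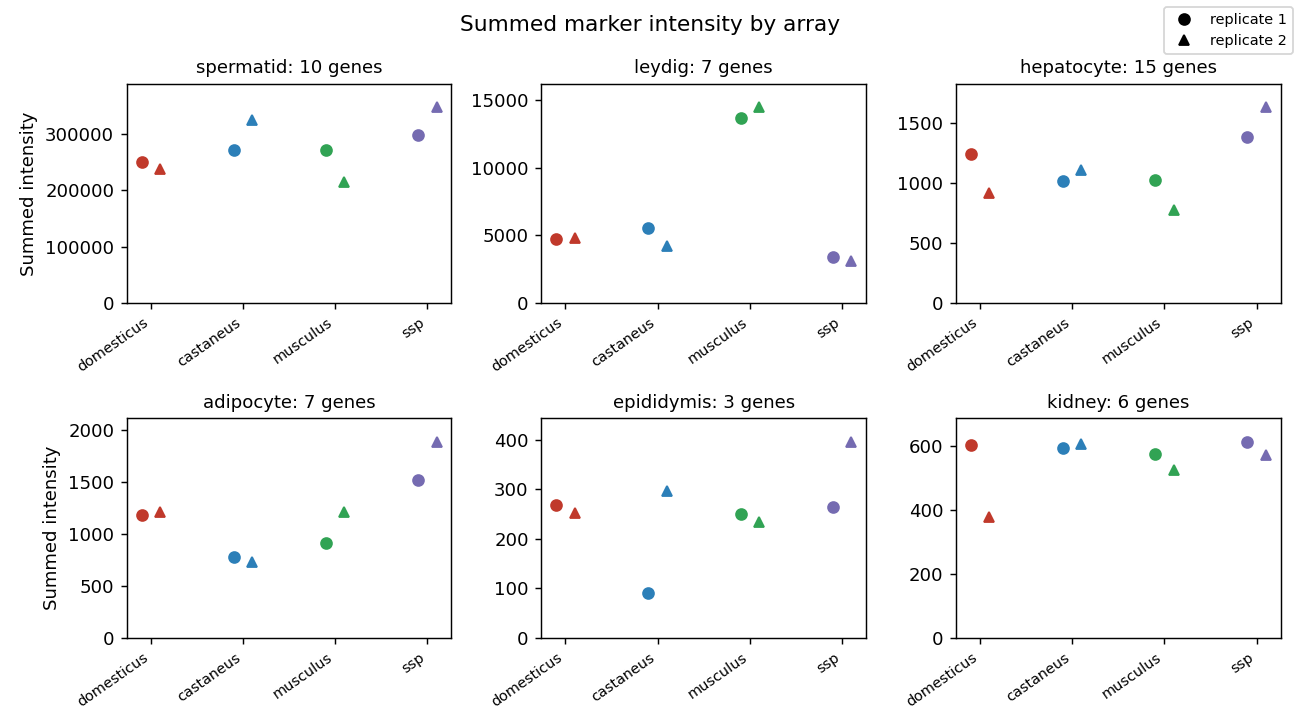
Summed intensity of 6 marker lists on each array, with 1 probe set a gene and circles and triangles for replicates 1 and 2. In none of these lists do both domesticus arrays stand above all the others, and the hepatocyte sums of 917.1 and 1244 in domesticus lie within the range of the other arrays.

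Likeness to a profile was taken as the root mean square difference between log2 profiles over the 8 arrays, each centred on its own mean. The 5 genes closest to Agt were Rpn1 (0.77), Cck (0.86), Pla2g12a (0.88), Aldh9a1 (1.11) and Nxph1 (1.17), against a root mean square of 2.29 for the Agt profile itself. All 5 had both domesticus arrays above the other 6, and 3 were read by probe sets with a suffix for related transcripts. They were selected for their nearness on the same arrays, so this is a description.

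Rpn1, a subunit of the enzyme that attaches sugar chains in the endoplasmic reticulum, read 824.3 and 955.1 in domesticus on 161400_f_at and 9.2 to 105.8 elsewhere. Its other probe set did not share the pattern, at 1127 and 823.2 in domesticus and 608.5 to 1089 elsewhere. Cck, cholecystokinin, read 388.6 and 352.3 in domesticus and was under the floor on both castaneus and both musculus arrays. Aldh9a1, an aldehyde dehydrogenase, read 439.5 and 600.3 in domesticus and 50.2 to 107.6 elsewhere. Pla2g12a, a secreted phospholipase, was close to Agt on 104343_f_at alone, as its other probe set read 233 and 207.8 in domesticus and 70.5 to 223 elsewhere. Nxph1, a ligand of neurexins, read 153.9 and 173.4 in domesticus and 15.2 to 36.1 elsewhere.

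The 5 genes closest to Ace 161224_f_at were Gja1 (0.36), Ssr3 (0.38), Adar (0.40), Dtd2 (0.40) and Copz2 (0.41), against 0.76 for that Ace profile itself. On these probe sets all 5, like Ace, were brightest on musculus replicate 1, and 3 of the probe sets had a suffix. Of 6 further probe sets for 4 of these genes, 3 were brightest on that array. Gja1, the gap junction protein connexin 43, read 343.2 on that array, 216.8 on the other musculus array and 89.5 to 144.3 on the rest. Adar, an RNA-editing enzyme, read 370.2 there, 195.1 on the other musculus array, 226.2 and 219.9 on the ssp arrays and 84.8 to 128.6 on the rest. The other Adar probe set, 102741_at, read 111.5 on musculus replicate 1 and was brightest on ssp replicate 1, at 469.4. Gja1 on 100064_f_at and Dtd2 on 104242_f_at were brightest on musculus replicate 2.

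**Figure D5:**
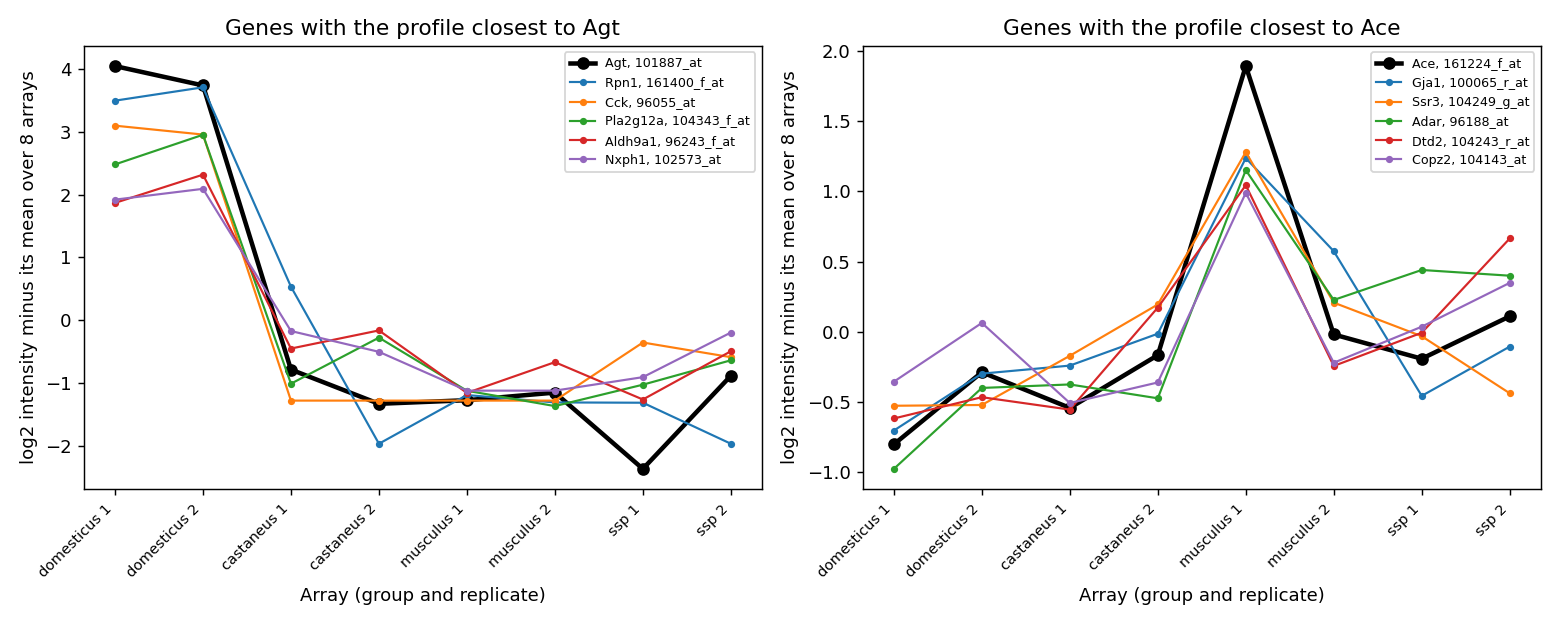
Log2 intensity on each array minus its mean over the 8 arrays for Agt (left) and Ace (right) in black and for the 5 genes closest to each in colour. The Agt group peaks on both domesticus arrays, and the Ace group peaks on musculus replicate 1.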

How the data were processed

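The authors deposited 1 table of linear intensities, 1 value per probe set and array. Its 2% trimmed mean lay between 495.1 and 495.9 on every array, so the arrays had been scaled before deposit. No source used here names the software, its settings or the target of that scaling. No further scaling was applied. Values were raised to the 10th percentile of all values and log2 was taken. Of 12422 probe sets, 10833 had 1 gene symbol in the platform annotation, 396 several and 1193 none, and 10817 were matched to the RefSeq table of GRCm38.p6 for current symbols. The 8874 probe sets that passed the filter were fitted with limma 3.58.1 in R 4.3.3, with 1 mean per group and 4 residual degrees of freedom. A probe set was called at a Benjamini-Hochberg adjusted p under 0.05 over all tested probe sets and a difference, or span of group means, of at least 1 log2. The code of the fit was checked on simulated data with differences planted in domesticus and independent noise, which does not test how the calls fare on these arrays.

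Genes were named by a rule: every probe set of the 7 members, pathway genes that passed, and the 5 genes closest to Agt and to any member whose brightest tested probe set spanned at least 1 log2. Prep passed (limma, adjusted p = 0.0394), through a filter that favoured it. The other pathway genes and single markers described were picked after their values were seen. The members and lists were chosen with earlier results of these data known. The number of arrays limits the precision.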

Additional observations from a re-analysis of the deposited data

How the results depend on the processing

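Under all 15 alternatives, 0 of the tested Ace, Enpep and (without a filter) Agtr2 probe sets differed among the groups by limma. At an unadjusted p under 0.05 there was 1 without a filter, 1 without musculus replicate 2 and 0 under the others. Agt in domesticus stayed 4.68 to 5.11 log2 above the next highest group, which describes values known when the set was drawn up and is no test. The counts over all probe sets moved more. Against 156 probe sets that differed among the groups and 389 calls summed over the 6 pairs, a filter at the 60th percentile gave 309 and 797, no filter 31 and 122, and a trended and robust variance 383 and 1001. With the replicate number as a block the counts were 42 and 171. Deviations of same-numbered arrays correlated at 0.03 to 0.17 between groups, so the numbers were not taken as pairs. Leaving out 1 array gave 9 to 55 probe sets and 18 to 184 pair calls. The span of Agt was 6.26 log2 without ssp replicate 2, and without either domesticus array Agt did not reach the filter. The alternatives for Prep, Adipoq, Cyp17a1 and Star were added after seeing the data. Prep had passed through a filter that favoured it, so neither its pass nor the loss of it is counted as a result. The pass of Prep was lost in all 6 fits that left out an array of another group (adjusted p from 0.0550 to 0.132), with quantile normalization (0.0558), without a filter (0.0828), with a trended and robust variance (0.196) and with the replicate block (0.0659). Dim probe sets, those of Agtr2 above all, are limited by signal over background.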
